A study of Mus musculus with 10 samples.

Results

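The genes that make, spend, recycle and break down glutathione were followed in the ovaries of young, aged and treated aged mice. The set was taken by gene symbol and held 42 of the 55487 genes of the count table: the glutathione S-transferase genes of the alpha, mu, pi, theta, omega, zeta and kappa classes, the microsomal transferases, the gamma-glutamyltransferases, and named enzymes of glutathione synthesis, reduction, breakdown and NADPH supply. The symbol rule uses no measured value, although the set was proposed with earlier results of these data known. Whole ovaries of C57BL/6J mice were sequenced, each as its own library. The Control group held 4 ovaries of 8-week-old mice, the Aged group 3 ovaries of 11-month-old mice, and the Aged+CF group 3 ovaries of 11-month-old mice given 200 μL of CEFFE (a liquid with the proteins of fat tissue but no cells) at 3 μg/μL protein. The injections went into the tail vein, and Control and Aged mice received saline. All mice had 10 IU of PMSG, a gonadotropin that makes follicles grow, 48 h before the ovaries were taken. Numbers such as Aged 33 are the replicate numbers of the labels. The labels do not say whether each ovary came from a separate animal, so p-values measure the spread between these samples, and equal numbers in different groups do not mark the same animal.

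Glutathione is a tripeptide of glutamate, cysteine and glycine that serves as the main thiol buffer of the cell. It is built by glutamate-cysteine ligase (a catalytic subunit encoded by Gclc and a modifier encoded by Gclm) and then glutathione synthetase (Gss), is spent by peroxidases and by transferases that attach it to electrophiles, and is returned to its reduced form by glutathione reductase (Gsr) with NADPH. In the ovary it accumulates in growing oocytes, and the steroid-making theca, granulosa and luteal cells, whose cytochrome P450 enzymes draw on NADPH and leak oxidants, are rich in glutathione enzymes. Gamma-glutamyltransferases start its breakdown outside the cell, and Chac1 and Chac2 encode enzymes that cleave it in the cytosol.

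The ovaries had 15761789 to 21318254 reads assigned to genes. Of the 42 genes, 38 passed edgeR's filter on low counts and were tested among 18956 genes, whereas Ggt6, Gstm3, Gstp3 and Gstt4 had at most 15 reads in any ovary and were not tested in that fit. A gene was called when its fold change was at least 1.5 and its p was under 0.05, first with the p adjusted by the Benjamini-Hochberg method over all genes tested and then, as a looser rule, unadjusted. Oocyte marker genes summed to 337 to 457 CPM (read counts per library size, scaled by TMM) in Control, 8.77 to 94.6 CPM in Aged and 128 to 198 CPM in Aged+CF, and none of them was at 0 in all ovaries. Control 33 and Aged 34 stood apart with 424 and 327 CPM of oviduct epithelium markers, against 8.82 to 39.1 CPM in the other 8 ovaries. In whole ovaries, fewer cells of a type and less RNA per cell cannot be told apart.

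Levels were compared between genes per length, as FPKM (reads per gene length and library size). Ranks and ratios between genes depend on the lengths used. These equal the annotated exon bases (GENCODE M21) for some genes and exceed them by unequal factors for others. For Gstp1 the length was 4526 against 1548 exon bases, and for Gsta4 it was 1428 against 1266. A few genes held most of the signal. Idh1, which encodes the cytosolic isocitrate dehydrogenase that makes NADPH, had the highest mean FPKM over the 10 ovaries at 255, followed by the mu class transferases Gstm1 at 158 and Gstm2 at 124. Those 3 genes together took 51.0% to 60.9% of the summed FPKM of the 42 genes in each ovary. The microsomal transferase Mgst1 at 49.2 FPKM and the alpha class Gsta4, whose enzyme removes the lipid peroxidation product 4-hydroxynonenal, at 39.8 FPKM came next. At the other end Ggt1, Ggt6, Gstm3, Gstp3 and Gstt4 had mean FPKM under 0.2. The summed FPKM ran from 794 to 927 in Control, from 949 to 1298 in Aged and from 883 to 917 in Aged+CF. The Aged ovaries all lay above the others in this sum. As a share of the FPKM of all genes only Aged 34, at 0.437%, stood above the other 9 ovaries, which lay between 0.279% and 0.318%. As a share of read counts all Aged ovaries were higher, at 0.383% to 0.468%. Control ovaries were at 0.304% to 0.328% of read counts and Aged+CF ovaries at 0.340% to 0.364%. The Aged ovaries also differed in what filled the sum. In Aged 31 and Aged 33 it was the reduction and NADPH class, at 458 and 494 FPKM, and in Aged 34 it was the mu class, at 609 FPKM.

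**Figure D1:**
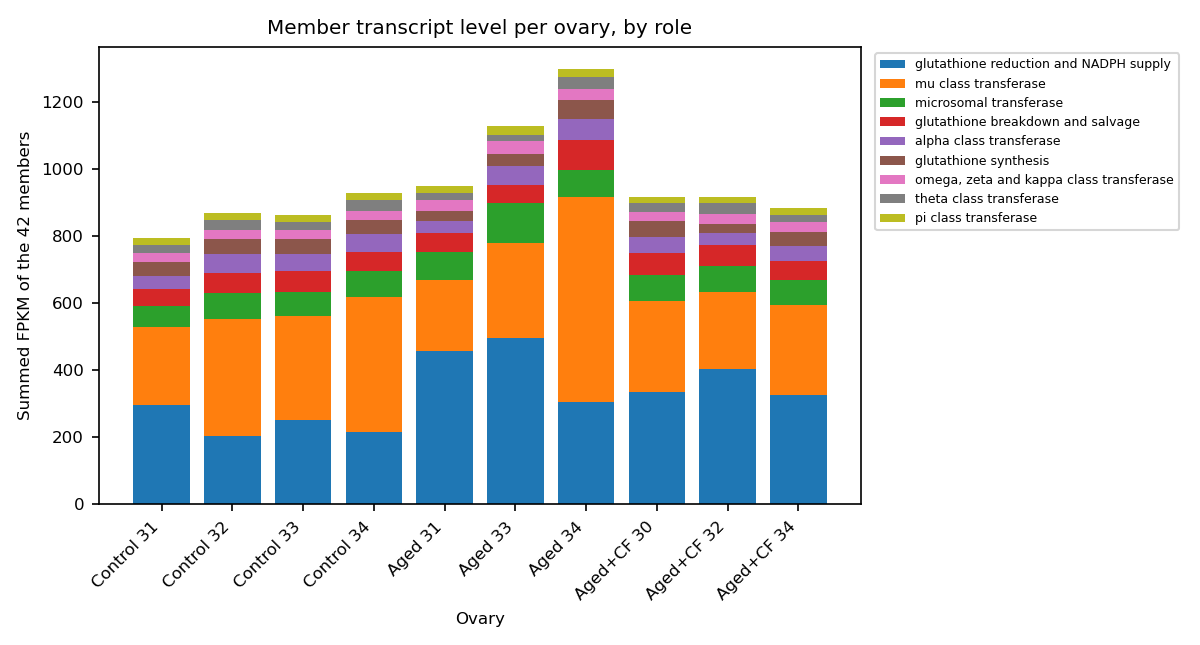
Stacked bars give the summed FPKM of the 42 glutathione genes in each of the 10 ovaries, divided into 9 roles by colour. The 3 Aged bars are the tallest, with a large glutathione reduction and NADPH part (blue) in Aged 31 and Aged 33 and a large mu class part (orange) in Aged 34.

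In Aged vs Control, the comparison of old with young ovaries, 5 of the 38 genes rose at adjusted p and none fell. They were Idh1, Gss, Mgst1, Gstm6 and Gstm7. Across all 18956 genes 11.1% were called, 948 higher and 1148 lower. At unadjusted p, 9 genes were higher (the same 5 with Mgst2, Chac2, Oplah and Anpep) and 1, Ggt1, was lower, where 18.2% of all genes were called, 8.79% higher and 9.44% lower. Without the fold limit the adjusted p alone passed for 8 genes, all higher, adding Gsto1, Gstk1 and Gstp1, where 15.4% of all genes passed, 7.14% being higher. For the 38 genes the median log2 fold change was 0.28, with 29 of 38 positive, against a median of -0.00053 and 49.9% positive over all genes tested. The groups did not overlap in CPM for 8 genes that were higher in Aged and for Ggt1, which was lower, against 27.5% of all genes, 11.8% higher and 15.6% lower.

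**Figure D2:**
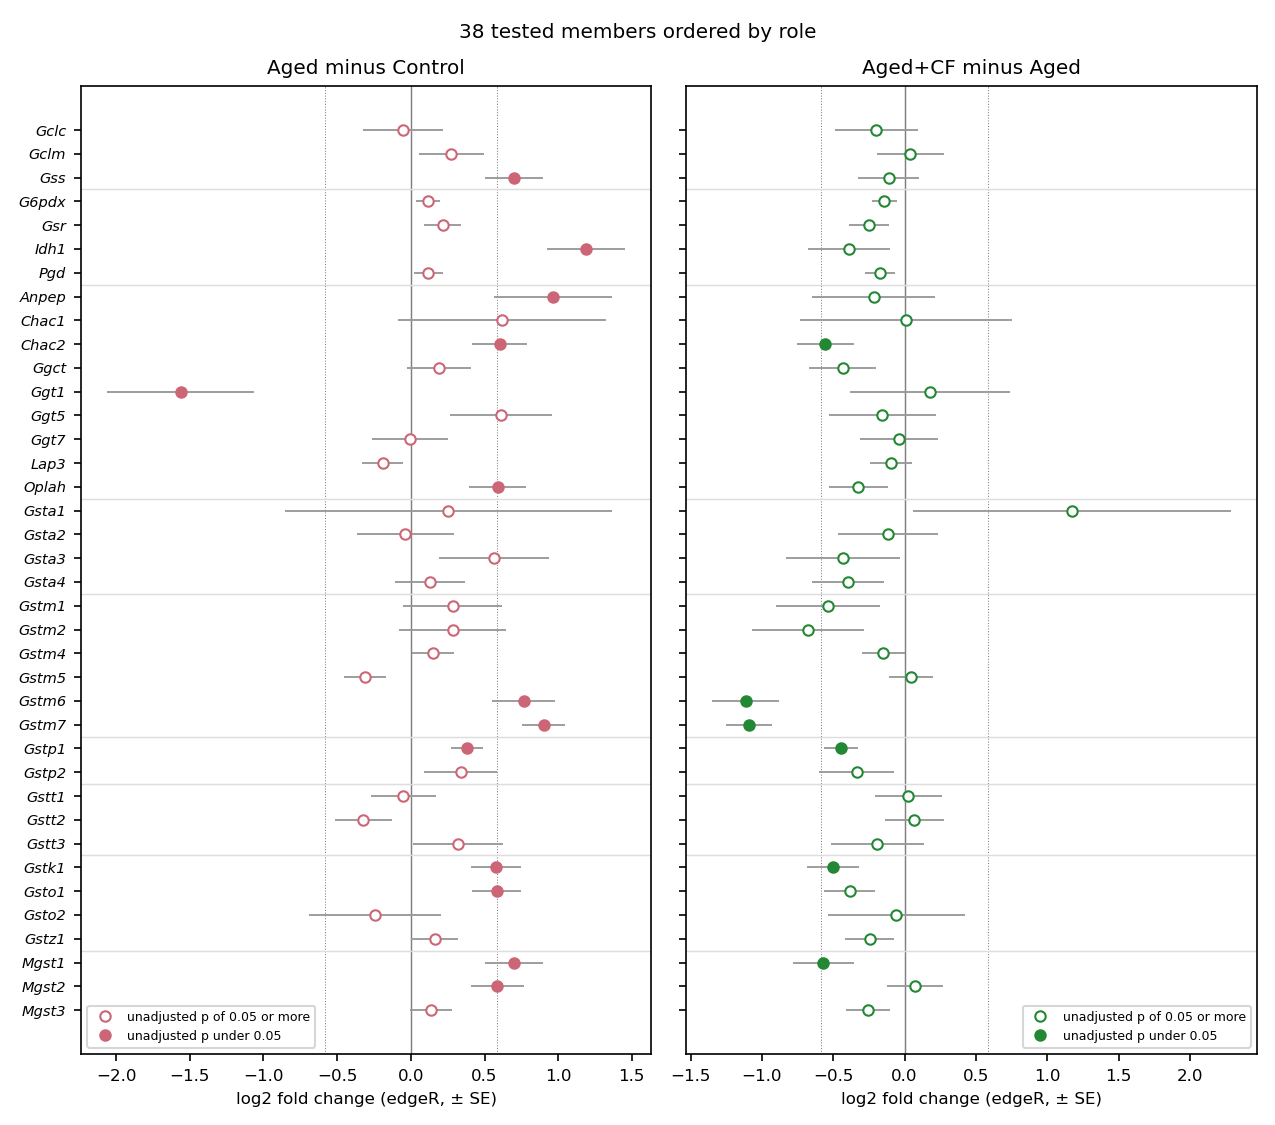
Points give the log2 fold change of each of the 38 tested genes for Aged minus Control (left) and Aged+CF minus Aged (right), ordered by role. Bars give a standard error computed from the F statistic of edgeR. Filled points passed an unadjusted p under 0.05, and dotted lines mark a fold change of 1.5. Most points lie right of 0 on the left and left of 0 on the right, and both panels use the same 3 Aged ovaries.

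Idh1 had the largest rise of the set. Its level was 978, 572, 762 and 608 CPM in Control 31, 32, 33 and 34, then 1813, 2165 and 1019 CPM in Aged 31, 33 and 34, and 1171, 1506 and 1140 CPM in Aged+CF 30, 32 and 34. All Aged and Aged+CF ovaries lay above all Control ovaries, but Aged 34 was only a little above Control 31. The log2 fold change in Aged vs Control was 1.19 ± 0.27 (SE, edgeR adjusted p = 0.0182), and the call was lost when Control 32, Control 34 or Aged 33 was left out. The gene lies at chr1:65158616-65186500 (GRCm38, minus strand), shares no stretch of 50 bases with another gene, and had 9173 reads or more in every ovary. The sum of theca and luteal steroid cell markers ran in almost the same order of ovaries. It was 6533 to 11651 CPM in Control, 15709 to 35220 CPM in Aged and 13676 to 21145 CPM in Aged+CF, and 6 of its 8 genes, Cyp11a1, Star, Hsd3b1, Lhcgr, Prlr and Akr1c18, were higher in Aged at adjusted p. Insl3 and Cyp17a1 of that list were not, and 1 of them was lower in Aged at unadjusted p. The part of this shift in the Idh1 result was not tested.

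The other enzymes of reduction and NADPH supply passed no test. Gsr, which reduces oxidized glutathione, was at 59.9, 67.8, 67.5 and 69.6 CPM in Control 31, 32, 33 and 34, at 69.2, 95.5 and 66.1 CPM in Aged 31, 33 and 34, and at 60.7, 66.6 and 66.7 CPM in Aged+CF 30, 32 and 34. Aged 33 stood above the rest, and the groups overlapped. The log2 fold change of Gsr in Aged vs Control was 0.22 ± 0.13 (SE, edgeR adjusted p = 0.285). G6pdx and Pgd, the NADPH-making enzymes of the pentose phosphate pathway, both had a log2 fold change of 0.12 in Aged vs Control and passed no test in any comparison. Over all 10 ovaries G6pdx ran from 92.7 to 115 CPM and Pgd from 165 to 208 CPM.

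Of the 3 genes of synthesis, only the last enzyme of the pathway was called. Gclc, the catalytic subunit that sets the rate of synthesis, was at 130, 146, 135 and 133 CPM in Control 31, 32, 33 and 34, at 85.4, 128 and 179 CPM in Aged 31, 33 and 34, and at 150, 69.9 and 123 CPM in Aged+CF 30, 32 and 34. The Control ovaries were close together, and the aged ovaries of both groups spread to either side of them. Its log2 fold changes were -0.05 ± 0.27 with age and -0.20 ± 0.29 with treatment (SE, edgeR adjusted p = 0.919 and 0.763).

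Gclm, the modifier subunit, was at 58.6, 34.9, 36.9 and 40.1 CPM in Control, at 49.8, 37.8 and 67.0 CPM in Aged and at 55.0, 46.6 and 57.4 CPM in Aged+CF, in the same order of ovaries. The groups overlapped, and neither Aged comparison passed (edgeR adjusted p = 0.431 and 0.950). The FPKM of Gclc was 3.14 to 8.79 times that of Gclm.

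Gss was at 21.2, 18.6, 20.9 and 18.6 CPM in Control, at 32.6, 42.1 and 22.1 CPM in Aged and at 27.9, 35.3 and 26.3 CPM in Aged+CF. All 6 aged ovaries lay above the Control ovaries, Aged 34 by less than 1 CPM. With age Gss had a log2 fold change of 0.70 ± 0.20 (SE, edgeR adjusted p = 0.0409). This call held in 2 of the 10 fits that left out 1 ovary, those without Aged 34 and without Aged+CF 32. Gss, at chr2:155563181-155592810 on the minus strand (GRCm38), is uncertain for a further reason. Of its exon bases, 15.4% overlap Acss2, Gssos1 or Gssos2 on the opposite strand, and the part of Acss2 alone was not computed. Whether counting used strand is not given in the sources used here. Acss2, an acetyl-CoA synthetase, rose with a log2 fold change of 2.21 ± 0.44 (SE, edgeR adjusted p = 0.0130) and was at 120, 191 and 43.5 CPM in Aged 31, 33 and 34, the same order as Gss. Reads of both genes cannot be told apart there.

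**Figure D3:**
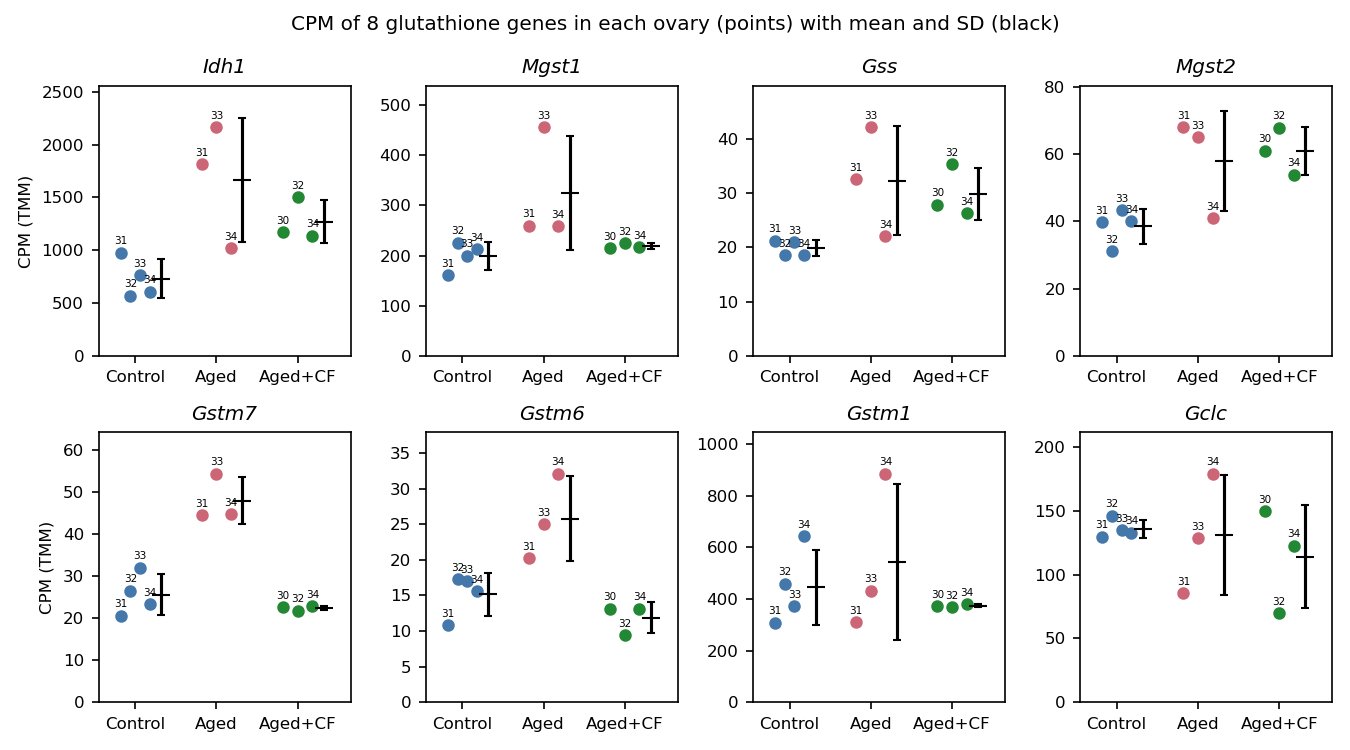
CPM of 8 genes in each ovary, with 1 panel per gene, 1 point per ovary labelled with its replicate number, and the mean and SD of each group in black. Gstm7, Gstm6 and Mgst1 are higher in the Aged ovaries than in either other group, Idh1 and Gss are higher in both aged groups than in Control, and the groups of Gstm1 and Gclc overlap.

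The mu class transferases, which conjugate glutathione to a broad range of electrophiles, had both called and uncalled genes side by side. Their 7 genes lie in 1 cluster at chr3:107895821-108044894 (GRCm38), in the order Gstm5, Gstm7, Gstm6, Gstm3, Gstm2, Gstm1 and Gstm4, all on the minus strand except Gstm5. Gstm7 and Gstm6 are neighbours there and were the 2 that were called. Their annotated coding sequences (GENCODE M21) were identical at 82.6% of aligned bases. Reads can be shared where paralogs hold the same bases. Of all stretches of 50 bases in its transcripts, Gstm7 shared 0.532% with any other gene, Gstm6 5.97%, Gstm2 5.66% and Gstm1 18.9%. For Gstm6, 3.49% were shared with Gstm3, so part of its 5.97% lies with other genes. The longest coding stretch that Gstm6 shared with any mu gene, 125 bases in common with Gstm3, is shown. This run is a place, but not the only one, where reads of Gstm6 could be assigned to another gene. It spans 3 exons within chr3:107942200-107942710 on the minus strand, and capitals mark the 32 bases that are also in Gstm7, the longest run Gstm6 and Gstm7 have in common.
Gstm6 and Gstm3: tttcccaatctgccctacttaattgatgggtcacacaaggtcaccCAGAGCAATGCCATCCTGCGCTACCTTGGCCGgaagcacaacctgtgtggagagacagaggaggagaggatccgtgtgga
Gstm3 itself had 1 to 7 reads in each ovary, while Gstm6 had 164 or more and Gstm7 354 or more.

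Gstm7 was at 20.7, 26.6, 32.1 and 23.4 CPM in Control 31, 32, 33 and 34, at 44.6, 54.5 and 44.9 CPM in Aged 31, 33 and 34, and at 22.7, 21.9 and 22.9 CPM in Aged+CF 30, 32 and 34. The Aged ovaries lay apart from both other groups, and the Aged+CF ovaries lay within the Control range. With age it rose by a log2 fold change of 0.90 ± 0.15 (SE, edgeR adjusted p = 0.00729), and this call held in all 10 fits that left out 1 ovary.

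Gstm6 was at 10.8, 17.3, 17.0 and 15.6 CPM in Control, at 20.2, 25 and 32.1 CPM in Aged and at 13.1, 9.42 and 13.2 CPM in Aged+CF. Here too the Aged ovaries overlapped neither group, with Aged 34 the highest in contrast to Gstm7, where Aged 33 was. Its rise with age was 0.77 ± 0.21 on the log2 scale (SE, edgeR adjusted p = 0.0388), a call that held in 4 of the 10 fits that left out 1 ovary, those without Aged 31 or without any 1 of the Aged+CF ovaries.

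The abundant mu genes were not called. Gstm1 was at 309, 460, 372 and 643 CPM in Control, at 311, 433 and 886 CPM in Aged and at 373, 370 and 382 CPM in Aged+CF. Gstm2 was at 239, 392, 342 and 352 CPM in Control, at 184, 343 and 682 CPM in Aged and at 281, 196 and 279 CPM in Aged+CF. Aged 31 was among the lowest and Aged 34 the highest ovary for both genes, so that the Aged ovaries were spread more widely than the Control ovaries. Both had a log2 fold change of 0.28 in Aged vs Control (edgeR adjusted p = 0.613 for Gstm1 and 0.642 for Gstm2), which turned to -0.22 and -0.29 without Aged 34. Aged 34 also had the largest macrophage marker sum, 1810 CPM against 377 to 783 CPM in the other 9 ovaries, and the largest plasma cell marker sum, 2910 CPM against 252 to 792 CPM; their part in the level of Gstm1 and Gstm2 was not tested. Gstm4 and Gstm5 passed no test in any comparison. With the reads of all 7 mu genes summed before the fit, the log2 fold change was 0.30 ± 0.31 (SE, edgeR adjusted p = 0.56). Gstm7 made up 2.60% to 8.96% and Gstm6 0.983% to 2.30% of the FPKM of the mu class.

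**Figure D4:**
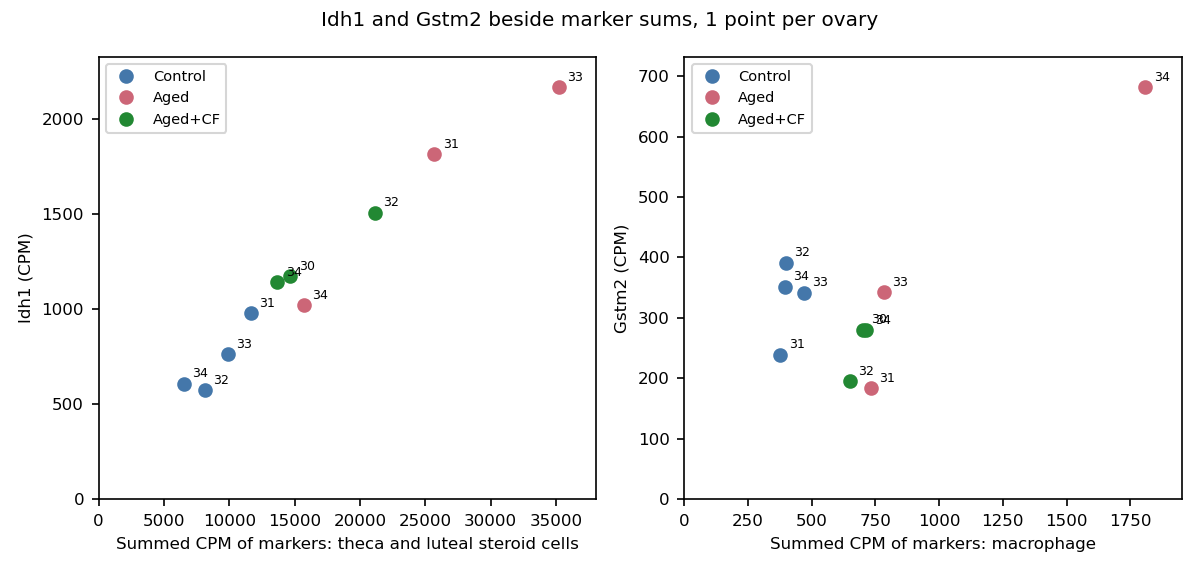
Each point is 1 ovary, labelled with its replicate number. On the left, Idh1 in CPM is set against the summed CPM of 8 theca and luteal steroid cell markers, with Aged 33 and Aged 31 at the upper end of both and the Control ovaries at the lower end; on the right, Gstm2 is set against the summed CPM of 6 macrophage markers, with Aged 34 alone at the upper right.

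Among the microsomal transferases, membrane proteins that also reduce lipid hydroperoxides or take part in eicosanoid synthesis, Mgst1 rose with age. It was at 161, 226, 200 and 213 CPM in Control, at 260, 456 and 258 CPM in Aged and at 214, 225 and 216 CPM in Aged+CF. All Aged ovaries were above all others, and Aged 33 was far above Aged 31 and Aged 34. In Aged vs Control this was a log2 fold change of 0.70 ± 0.20 (SE, edgeR adjusted p = 0.0406). The call was kept in 2 of the 10 fits that left out 1 ovary, those without Aged 31 and without Aged 34, and without Aged 33 the log2 fold change was 0.40.

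Mgst2, which can make leukotriene C4, was at 39.8, 31.2, 43.3 and 40.0 CPM in Control, at 68.0, 65.0 and 40.9 CPM in Aged and at 61.0, 67.9 and 53.9 CPM in Aged+CF. Aged 34 fell inside the Control range, whereas the Aged+CF ovaries were all above it. Aged vs Control gave a log2 fold change of 0.59 ± 0.18 (SE, edgeR adjusted p = 0.0547), and without Aged 34 it was 0.82 and passed at adjusted p (edgeR, 0.00563). Mgst3 passed no test.

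In the remaining transferase classes no gene was called at adjusted p with the fold limit. Gsto1, an omega class enzyme that works as a thiol transferase, was at 46.4 to 53.7 CPM in Control and 56.7 to 92.8 CPM in Aged, without overlap, with a log2 fold change of 0.58 ± 0.16 (SE, edgeR adjusted p = 0.0408), just short of a fold change of 1.5. Gstk1, the kappa class transferase of mitochondria and peroxisomes, had a log2 fold change of 0.58 as well (edgeR adjusted p = 0.0447). Gstp1, the pi class enzyme, was at 61.1 to 75.6 CPM in Control and 78.0 to 102 CPM in Aged, with a log2 fold change of 0.38 ± 0.11 (SE, edgeR adjusted p = 0.0445). It shared 33.7% of its stretches of 50 bases with Gstp2, and with the pi genes summed before the fit the log2 fold change was 0.38 (edgeR adjusted p = 0.0413).

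The alpha class gave no call. Gsta4 was at 42, 67.5, 62.2 and 61.8 CPM in Control, at 44.4, 77.5 and 69.7 CPM in Aged and at 56.9, 35.1 and 53.3 CPM in Aged+CF. The groups overlapped, with a log2 fold change of 0.13 ± 0.24 in Aged vs Control (SE, edgeR adjusted p = 0.756). Gsta1, with 0 to 51 reads, shared 90.5% of its stretches of 50 bases with other genes, so its values are uncertain, and Gsta2 shared 49.8%. Gsta3 was highest in Aged 34 at 31.8 CPM, against 8.94 to 19.0 CPM elsewhere. The theta class genes Gstt1, Gstt2 and Gstt3, and the omega and zeta genes Gsto2 and Gstz1, also passed no test in any comparison.

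Of the 9 tested enzymes of breakdown and salvage, 3 were higher and 1 lower at unadjusted p in Aged vs Control, where 8.79% of all genes were higher and 9.44% lower. Ggt1, a gamma-glutamyltransferase of the cell surface, was at 1.23, 1.12, 0.913 and 0.795 CPM in Control, at 0.239, 0.141 and 0.607 CPM in Aged and at 0.229, 0.287 and 0.609 CPM in Aged+CF. All 6 aged ovaries lay under all Control ovaries, on 15 to 21 reads per ovary in Control, 2 to 11 in Aged and 4 to 13 in Aged+CF. Ggt1 thus passed edgeR's filter on low counts mainly through Control, so its lower level in aged ovaries is not independent of that filter. Relative to Control its log2 fold change was -1.56 ± 0.50 for Aged and -1.39 ± 0.49 for Aged+CF (SE, edgeR unadjusted p = 0.0110 and 0.0170, adjusted p = 0.0614 and 0.246). Without Aged 34 the log2 fold change in Aged vs Control was -2.31 and passed at adjusted p (edgeR, 0.0163).

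Anpep, an aminopeptidase that cleaves the dipeptide left by gamma-glutamyltransferase, ranged from 50.8 CPM in Aged 33 to 249 CPM in Aged 34, the lowest and the highest of all 10 ovaries. Its log2 fold change was 0.97 ± 0.40 (SE, edgeR unadjusted p = 0.0374, adjusted p = 0.132). Chac2 and Oplah, the oxoprolinase that returns glutamate to the cycle, were at 1.52 and 1.50 times the Control level in the fit and passed at unadjusted p only (edgeR, 0.00958 and 0.0127; adjusted p = 0.0567 and 0.0670). Ggt5, a gamma-glutamyltransferase that acts on leukotriene C4, was at 117 CPM in Aged 34 and at 33.5 to 61.6 CPM in the other 9 ovaries. Chac1, Ggct, Ggt7 and Lap3 passed no test. Exons of Oplah, Ggt7, G6pdx, Gclm, Gstm5, Gstt3 and Gstz1 also overlap other genes, over 4.71% to 13.9% of their exon bases.

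Within the Aged group the glutathione genes were more variable than in the other groups. The median SD of log2 values over the 38 genes was 0.40 in Aged, 0.21 in Control and 0.20 in Aged+CF, beside 0.29, 0.18 and 0.17 over all genes tested. The p-values of edgeR, and the SE computed from its F statistic, use a spread per gene that all groups share. With only Aged and Control in the fit, Idh1 and Gstm7 kept their call at adjusted p, and Gss, Mgst1 and Gstm6 lost it. Aged 33 was the highest of the 10 ovaries for 16 of the 38 genes and Aged 34 for 13, where over all genes tested the shares were 21.1% and 16.9%. Idh1, Gss, Mgst1, Gstm7, Gsto1, Gsr, Oplah and Gstp1 were highest in Aged 33, and Gstm1, Gstm2, Gstm6, Gclc, Gclm, Anpep, Ggt5 and Gsta3 in Aged 34.

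**Figure D5:**
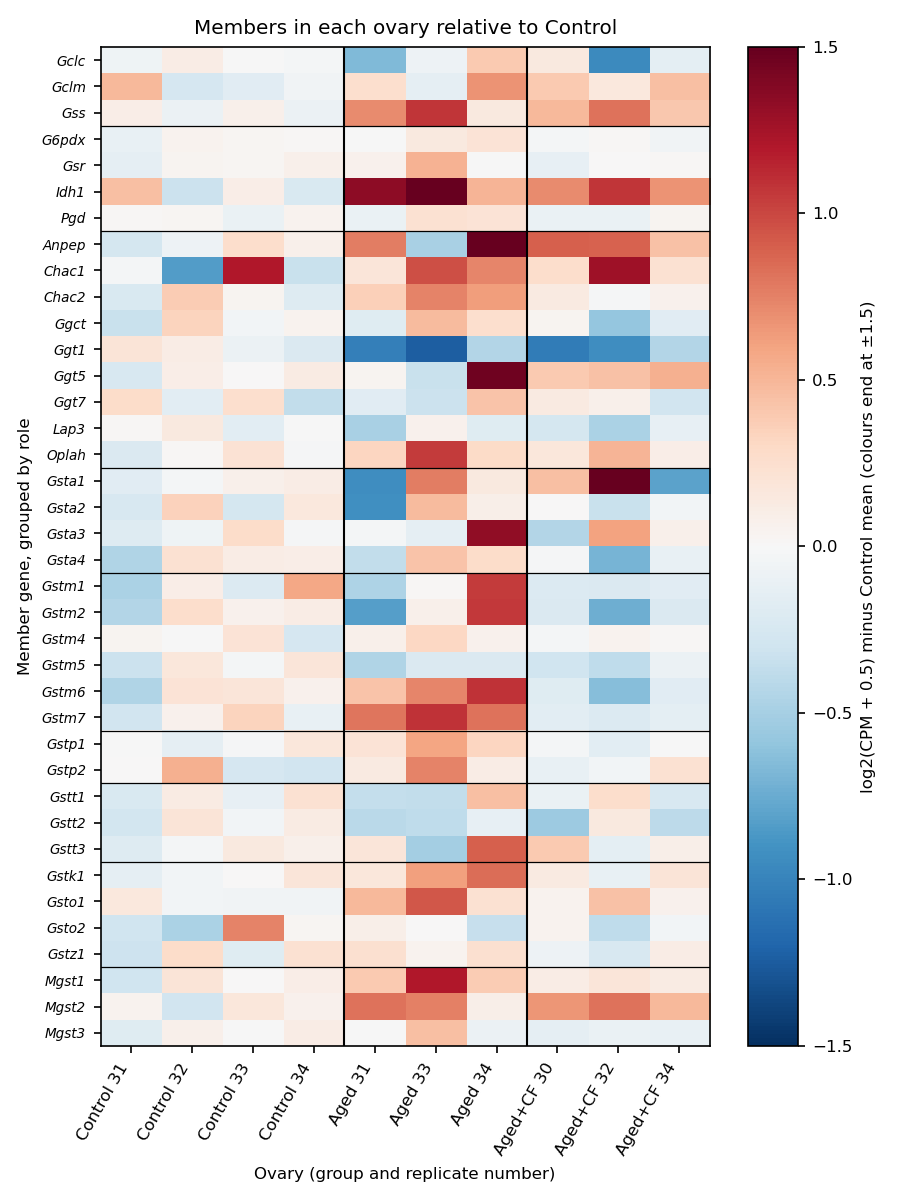
Colours give log2(CPM + 0.5) of the 38 tested genes in each ovary minus the mean of the Control ovaries, with colours ending at 1.5 in either direction and horizontal lines between roles. Gstm7 is red in all 3 Aged columns and pale in the Aged+CF columns. Idh1 is red in both aged groups, as is Gss except in Aged 34, where it is pale. Ggt1 is blue in both aged groups, and the red of Anpep, Ggt5, Gstm1 and Gstm2 is strongest in Aged 34.

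In Aged+CF vs Aged, the comparison of treated with untreated old ovaries, no glutathione gene passed at adjusted p by edgeR, where 1 gene of 18956, 0.00528%, was called. At unadjusted p, 2 of 38 were called, both lower in Aged+CF, against 7.96% of all genes and 4.05% that were lower. They were Gstm6 and Gstm7. The log2 fold change of Gstm7 was -1.09 ± 0.16 (SE, edgeR unadjusted p = 4.87e-05, adjusted p = 0.115) and that of Gstm6 was -1.11 ± 0.23 (SE, edgeR unadjusted p = 0.000754, adjusted p = 0.151). DESeq2's Wald test called both at adjusted p, among 442 genes in all. Limma on log2(FPKM + 0.1) called 0 of the set and 6 genes in all at adjusted p, and both at unadjusted p. The edgeR fit called Gstm7 at adjusted p when Aged 34 was left out, among 556 genes in all. With the mu genes summed before the fit the log2 fold change was -0.60 ± 0.33 (SE, edgeR adjusted p = 0.396).

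Without the fold limit, 6 genes had an unadjusted p under 0.05, all lower in Aged+CF, against 16.3% of all genes and 8.27% that were lower. Besides Gstm6 and Gstm7 they were Gstp1, Gstk1, Chac2 and Mgst1. The log2 fold change of Mgst1 was -0.57 ± 0.21 and that of Gstp1 was -0.45 ± 0.12 (SE, edgeR unadjusted p = 0.0239 and 0.00381, adjusted p = 0.245 and 0.169). The Aged+CF and Aged ovaries did not overlap for 7 tested genes, all lower in Aged+CF (Chac2, Gstm4, Gstm6, Gstm7, Gstp1, Mgst1 and Mgst3), against 18.6% of all genes and 8.39% that were lower. Over the 38 genes the median difference was -0.21 on the log2 scale, with 30 of 38 negative, against a median of -0.02 over all genes tested, of which 47.4% were positive. The same Aged ovaries enter this comparison and Aged vs Control, so opposite signs in them are not separate observations.

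In Aged+CF vs Control no glutathione gene passed at adjusted p by edgeR, where 0.179% of all genes were called, while DESeq2's Wald test called 1, Mgst2, among 528 genes in all, and limma on log2(FPKM + 0.1) called 0. At unadjusted p, 4 of 38 were called, against 7.69% of all genes, 3.33% higher and 4.36% lower. Idh1, Gss and Mgst2 were higher, with log2 fold changes of 0.80 ± 0.27, 0.59 ± 0.20 and 0.66 ± 0.18, and Ggt1 was lower (SE, edgeR unadjusted p = 0.0131, 0.0142 and 0.00459 for those that were higher). All of these calls were lost without Aged+CF 32, those of Gss and Mgst2 also without Control 32, that of Gss also without Control 34, and that of Ggt1 also without Aged+CF 30. The ovaries did not overlap for 6 genes, Anpep, Ggt5, Gss, Idh1 and Mgst2 being higher and Ggt1 lower, against 21.9% of all genes, 9.69% higher and 12.2% lower. Both the 38 genes and all genes tested had a median of -0.03 on the log2 scale. Gstm7 had a log2 fold change of -0.19 ± 0.15 and Mgst1 of 0.13 ± 0.20, and neither passed (edgeR unadjusted p = 0.229 and 0.528).

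Promoter windows of RefSeq (GRCm38.p6, 250 bases before to 50 after each annotated start) were found for 36 of the 42 genes and searched on both strands for TGACNNNGC, the core of the antioxidant response element to which the stress factor Nrf2 binds, and for CAAGGTCA, a site of the steroidogenic factors NR5A1 and NR5A2. The first was in a window of 9 of the 36 genes (G6pdx, Gclm, Ggct, Ggt1, Gsta3, Gstm5, Gstm7, Mgst1 and Pgd), while 14.0% of all 27025 genes with a window have one that holds it. By window it was in 11 of 50, against 12.4% of all 32851 windows. The second was in 1 gene, Ggt1, against 1.76% of all genes and 1.56% of all windows. The bases around the matches in Gstm7, Mgst1 and Ggt1, the genes with a match that were called in Aged vs Control, are shown, with the match in capitals, so that they can be set against the values above. They read along the gene's strand at chr3:107931725-107931753 (minus) for Gstm7, and chr6:138140461-138140489 (plus) for Mgst1. Ggt1 has its matches near 3 annotated starts, at chr10:75564149-75564176, chr10:75564163-75564181, chr10:75568616-75568644 and chr10:75571467-75571495 (plus), given in that order, and the second of them ends with its window. In Mgst1 and in the lines of Ggt1 at chr10:75564149-75564176 and chr10:75568616-75568644 the capitals are the reverse complement of the motif.
Gstm7, TGACNNNGC: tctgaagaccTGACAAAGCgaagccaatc
Mgst1, TGACNNNGC: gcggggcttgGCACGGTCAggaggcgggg
Ggt1, CAAGGTCA: taggacttgtTGACCTTGggcatctgac
Ggt1, TGACNNNGC: cttgggcatcTGACACAGC
Ggt1, TGACNNNGC: gaagggaggaGCTGGGTCActgctgggga
Ggt1, TGACNNNGC: gtcacaagccTGACGCTGCgcctccttgc
No match to either was in the windows of Idh1, Gss, Gstm6 or Mgst2. Gclc, Gsr, Gsta4 and Ggt5 were among the genes without a window, so they were not searched. Of the 9 genes with the first motif, Gstm7 and Mgst1 rose with age at adjusted p, Ggt1 was lower at unadjusted p, and G6pdx, Gclm, Ggct, Gsta3, Gstm5 and Pgd passed neither rule in Aged vs Control. A match says only that these letters are there.

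Other genes of glutathione metabolism and genes of the Nrf2 axis, a list of 50, were read in the same fit. The list held peroxidases, the peroxiredoxin Prdx6, glutaredoxins, thioredoxin reductases, transporters, glyoxalases, further NADPH enzymes and genes of cysteine supply. Of the 46 tested, 10 rose and 2 fell in Aged vs Control at adjusted p, where 11.1% of all genes were called, 948 higher and 1148 lower. Among the Nrf2 axis genes, Srxn1 rose with a log2 fold change of 1.08 (edgeR adjusted p = 0.0148). Nfe2l2, Keap1, Nqo1, Hmox1, Bach1, Maff and Mafg passed neither rule in Aged vs Control. Me1, the cytosolic malic enzyme and another source of NADPH, was at 815, 673, 744 and 745 CPM in Control 31, 32, 33 and 34, at 1867, 2310 and 1323 CPM in Aged 31, 33 and 34, and at 1088, 1873 and 1129 CPM in Aged+CF 30, 32 and 34. As for Idh1, Aged 33 was highest and all 6 aged ovaries were above Control, with a log2 fold change of 1.30 ± 0.23 (SE, edgeR adjusted p = 0.00901), a call that held in all 10 fits without 1 ovary. Idh2, the mitochondrial counterpart of Idh1, went the other way. It was at 90.3 to 121 CPM in Control, 59.6 to 72.0 CPM in Aged and 73.1 to 95.6 CPM in Aged+CF, with a log2 fold change of -0.71 ± 0.14 in Aged vs Control (SE, edgeR adjusted p = 0.0125), and its call too held in all 10 such fits. Gpx7, a peroxidase of the endoplasmic reticulum, also fell, with a log2 fold change of -0.86 (edgeR adjusted p = 0.0495), but its call held in 1 of the 10 fits, that without Aged 33. Nat8, which acetylates cysteine conjugates, had a log2 fold change of 2.61 (edgeR adjusted p = 0.0321). It was at 4.47, 16.4 and 1.10 CPM in Aged 31, 33 and 34 and at 0.901 to 1.42 CPM in Control, so that Aged 34 lay within the Control range and Aged 33 far above it. Without Aged 33 the log2 fold change of Nat8 was 1.27 and the call was lost (edgeR adjusted p = 0.133), as it also was without any 1 of the Control ovaries. The peroxidases Gpx1 and Gpx3 rose with log2 fold changes of 1.26 and 1.14 (edgeR adjusted p = 0.0261 and 0.0357). The call of Gpx1 was lost without Control 31, Control 33 or Aged 31, and that of Gpx3 without any 1 of the Control ovaries, Aged 33 or Aged+CF 30, with 0.70 for Gpx3 without Aged 33. Among the same 46, treated against untreated aged ovaries gave 0 that passed at adjusted p by edgeR, 6 were lower and 0 higher at unadjusted p, where 4.05% of all genes were lower and 3.91% higher, and DESeq2's Wald test called 1 at adjusted p, which was lower.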

How the data were processed

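Ovary RNA of 10 mouse samples was grouped by the GEO labels into Control (4), Aged (3) and Aged+CF (3). A table, deposited by the authors, holds unnormalized read counts for every gene beside FPKM values. The submitters' processing notes name TopHat, Cufflinks 2.1.1 and GRCm38.p4; the counting tool, annotation and strand setting are not given in the sources used here. In the deposited FPKM each gene has the same length in every ovary.

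Counts were fitted in edgeR 4.0 (R 4.3): edgeR's filter on low counts left 18956 genes, libraries were scaled by TMM, and a quasi-likelihood model with 1 mean per group was fitted to all 10 ovaries and tested by a two-sided F test. Both call rules come from the paper, which does not name its test for the sequencing data. Each SE was computed as the absolute log2 fold change divided by the square root of the F statistic. CPM are TMM scaled, and FPKM served for levels. Fold changes on log2(FPKM + 0.1) in limma 3.58 understate the change of low genes. DESeq2 1.42, no filter, size factors, only the compared groups, summed paralog families, the replicate block, limma and leaving out each ovary were alternatives; the oviduct and no fold limit settings were added after the data were seen. The fit was tested on simulated counts. Stretches of 50 bases were compared between GENCODE M21 transcripts, and no pair of libraries within a group was a duplicate. The read length and the number of reads per library before counting are not given in the sources used here.

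The members and lists were chosen with earlier results of these data known. Values in every ovary are given for genes called at adjusted p in Aged vs Control, those called at unadjusted p in the other comparisons, Gclc, Gclm, Gss and Gsr, and the 5 genes highest in mean FPKM. Of the pathway list, up to 4 genes per direction with the largest fold change among those called in Aged vs Control are named. Its Nrf2 axis genes are also named, which was decided after their values were seen. Acss2 was named after its values were seen, as were the other genes given with single values. Promoters are shown as the bases around each motif, since the windows overlap annotated first exons. Marker lists of granulosa, ovarian surface epithelium, adipocyte, erythroid and endothelial cells were also read.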

Additional observations from a re-analysis of the deposited data

How the results depend on the processing

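In Aged vs Control the number of glutathione genes at adjusted p, 5, was 2 with no filter on low counts, 8 with DESeq2 size factors, 10 by DESeq2's Wald test, 2 with only the compared groups in the fit, 3 with paralog families summed, 3 by limma on FPKM (2 higher and Ggt1 lower), 8 with no fold limit and 8 without both ovaries with high oviduct marker sums. Leaving out 1 ovary gave 1 (without Control 34) to 8 (without Aged 34); it was 2 without Control 31, Control 32, Control 33 or Aged 33 and 3 without Aged+CF 30 or Aged+CF 34. Summing paralog families left 27 tested rows and merged Gstm6 and Gstm7 into 1 mu row, while Gss, Idh1 and Mgst1 kept their call. At unadjusted p, 10 became 4 by limma and 7 to 12 when 1 ovary was left out. The pathway list, 12, gave 5 with only the compared groups, 7 by limma and 4 (without Control 33) to 12 without 1 ovary. The median log2 fold change, 0.28, was 0.07 by limma, where the median of all genes was -0.139, and 0.17 to 0.44 when 1 ovary was left out.

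In Aged+CF vs Aged the adjusted count, 0, was 2 by the Wald test, 1 without both oviduct-marked ovaries and 0 to 1 (without Aged 34) when 1 ovary was left out. At unadjusted p, 2 became 0 with families summed, 4 without both oviduct-marked ovaries and 2 to 9 (without Aged 31) when 1 ovary was left out. With families summed, Gstm6 and Gstm7 were part of the mu row and could not be called by themselves. The pathway list, 0, gave 1 by the Wald test, 4 without both oviduct-marked ovaries and 0 to 5 (without Aged 34). In Aged+CF vs Control the adjusted count, 0, was 1 by the Wald test, 3 with only the compared groups and 0 to 1 (without Aged 34), the unadjusted count, 4, was 0 (without Aged+CF 32) to 6, and the pathway list gave 1 by the Wald test and 1 with only the compared groups.

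Equal replicate numbers were not treated as pairs. Deviations from the group means of equal-numbered Control and Aged ovaries correlated at 0.157, -0.178 and 0.091. For Control and Aged+CF ovaries the values were -0.108 and 0.173, and for Aged 34 and Aged+CF 34 it was -0.033. So few values cannot decide whether equal numbers mark a shared batch. With the replicate block, 0 glutathione genes and 0 of the pathway list passed at adjusted p in Aged vs Control, where 80 genes in all did, and at unadjusted p 8 passed in Aged+CF vs Aged and 7 in Aged+CF vs Control. The causes were not tested. No call reversed. Depth limits Ggt1, with 2 to 21 reads per ovary, and Gsta1, with 0 to 51.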

Other observations

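Some genes of the set were at the limit of detection. Gstt4 had 0 to 3 reads per ovary, Gstp3 0 to 8, Gstm3 1 to 7 and Ggt6 1 to 15, and they did not pass edgeR's filter on low counts with all 10 ovaries. Ggt6 was at 0.282 to 0.895 CPM in Aged and at 0.0469 to 0.229 CPM in Aged+CF. With no filter Ggt6 had a log2 fold change of -1.95 in Aged+CF vs Aged (edgeR unadjusted p = 0.0162, adjusted p = 0.377), and it was also lower in Aged+CF vs Control (edgeR unadjusted p = 0.0454, adjusted p = 0.544). Ggt6 passed the filter in 5 of the fits that left out 1 ovary and was called there at unadjusted p in 4 for Aged+CF vs Aged (without Aged 33, Aged 34, Aged+CF 30 or Aged+CF 32) and in 2 for Aged+CF vs Control (without Aged 33 or Aged+CF 30), and in none at adjusted p. In those 5 fits Ggt6 passed the filter through Control 33 and Aged 31, with 14 and 15 reads, while the Aged+CF ovaries had 1 to 4. The filter was met only where Ggt6 was high, so its calls there are not separate evidence of a lower level in Aged+CF. Gstm3, Gstp3 and Gstt4 were called in no comparison with no filter. Granulosa cell markers summed to 4318 to 7224 CPM in Control, 3223 to 3790 CPM in Aged and 2379 to 4145 CPM in Aged+CF, endothelial markers to 296 to 372, 434 to 571 and 387 to 410.5 CPM, erythroid markers to 46.5 to 75, 178 to 414 and 72.8 to 167 CPM, adipocyte markers to 17.5 to 87.2, 31.4 to 100.3 and 35.0 to 37.5 CPM, and ovarian surface epithelium markers to 99.6 to 226, 47.9 to 292 and 129 to 260 CPM, in the same order of groups.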
